A study of Mus musculus with 46 samples.

Results

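XY gonads labelled homozygous for 3bp-12bp-del, a mutation in Enh13, were compared with wild-type XY gonads of the same age. The members are the 3 libraries titled XY Enh13-3bp-12bp-del-hom and the 3 titled XY WT, 6 of the 46 libraries of the series, and the main results are given with and without wild-type replicate 3, which carries mesonephros markers. All libraries were made from poly(A)-selected RNA of whole mouse gonads at E12.5, an embryonic age at which testis and ovary begin to look different. The labels do not say whether the name means 1 allele with both deletions or 2 different alleles, nor the strain, the number of founder lines or whether replicates are separate animals. The p-values therefore measure the spread between these libraries, which may be technical. Groups used for comparison were XY 3bp-del heterozygotes (n = 3), XY 3bp-del homozygotes (n = 5), XX 3bp-12bp-del homozygotes (n = 5), XX wild type (n = 3) and, for the sex difference of each gene, XX 3bp-del heterozygotes (n = 3). Levels are also given for XY 1bp-ins heterozygotes (n = 3) and homozygotes (n = 5). XX 1bp-ins heterozygotes (n = 3), XX 1bp-ins homozygotes (n = 5) and XX 3bp-del homozygotes (n = 5) complete the 12 groups. These XX groups enter the fits over all 12 groups and the plot of Tmem254, Nnt, Gm16867 and Gm8226 by library. All are of the same age and, except for the wild types, carry mutations of the same enhancer.

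Sox9 encodes the transcription factor that directs supporting cells of the bipotential gonad to become Sertoli cells, the cells that build testis cords and secrete anti-Müllerian hormone. Enh13 is an enhancer far upstream of Sox9 that is bound by SRY and by SOX9 itself and raises Sox9 transcription in XY gonads, and loss of the whole element in XY mice leads to ovaries. In the fetal testis, Sertoli cells signal to steroid-producing Leydig cells through Desert hedgehog, and the ovarian route runs through WNT signalling and FOXL2.

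The 3 homozygotes had the 3 highest Sox9 levels among the 6 libraries, a difference that did not pass edgeR's genome-wide test in the 2-group fit and did pass by DESeq2. With all 6 libraries edgeR called Tmem254 and Ncan, both higher, and DESeq2 called 135 genes, 110 higher and 25 lower. Without wild-type replicate 3, 50 genes rose and 6 fell by edgeR, among them BC006965, the transcript that runs away from Sox9, which was higher, and the interstitial factor Nr2f2, which was lower. Of the testable risers, 35 of 49 (71.4%) were genes with more RNA in XY than in XX gonads of 3bp-del heterozygotes, against 16.1% of all genes.

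The 6 libraries held 29909111 to 41294003 estimated counts in 33331 gene rows. Xist was at most 0.19 CPM (counts scaled to a common library size with TMM factors) and Ddx3y at least 64.1 CPM in all 6, as their XY labels require. Wild-type replicate 3 stood apart. The 10 mesonephros and nephric duct genes had a mean log2 CPM of 4.10 in it, against -0.34 and -0.05 in wild-type replicates 1 and 2 and -0.52, -0.90 and 1.17 in homozygotes 1 to 3. Cdh16, a kidney and nephric duct cadherin, reached 80.4 CPM in wild-type replicate 3, 0.44 and 1.42 in the other wild types, and 1.02, 0.032 and 8.995 in homozygotes 1 to 3. The 21 Sertoli genes were lower in wild-type replicate 3, with a mean log2 CPM of 4.90 against 6.16 and 6.02. The homozygotes also differed among themselves. Homozygote 2 had less germ cell RNA, with Dazl, a germ cell RNA-binding protein, at 15.2 CPM against 53.1 and 45.0 in homozygotes 1 and 3, and its 10 most abundant genes took 7.69% of the counts against 3.99 and 3.98%. Homozygote 3 had the highest Amh and Leydig values. In whole gonads, fewer cells of a type and less RNA per cell cannot be told apart.

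Sox9 (chr11:112782224-112787760, GRCm38, plus strand) was at 159, 163 and 84.0 CPM in the wild types and at 222, 323 and 247 CPM in the homozygotes. The groups did not overlap, and the lowest value was that of wild-type replicate 3. The log2 difference was 0.95 (SE 0.27) with 6 libraries, at an adjusted p of 0.613 (edgeR quasi-likelihood test, Benjamini-Hochberg over all genes), and 0.70 (SE 0.16) without wild-type replicate 3, at an adjusted p of 0.0986. Neither passed 0.05. An exact two-sided permutation test of 3 against 3 gave p = 0.1, the smallest value this design allows. It did pass in other fits: with 6 libraries DESeq2 gave an adjusted p of 0.0338 and 1 edgeR fit over all 12 groups gave 0.0108, and without wild-type replicate 3 they gave 0.000376 and 0.0426.

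Set beside the other XY groups, the wild types were the low end. Sox9 averaged 135 CPM in the wild types (SD 44.3, n = 3), or 161 CPM in replicates 1 and 2 (SD 2.85), and 264 CPM in the 3bp-12bp-del homozygotes (SD 52.7, n = 3). The 3bp-del heterozygotes had 210, 160 and 164 CPM, with a mean of 178, and the 5 3bp-del homozygotes ran from 174 to 226 CPM around a mean of 205. The 1bp-ins heterozygotes averaged 220 CPM (SD 8.99, n = 3) and the 1bp-ins homozygotes 233 CPM (SD 31.4, n = 5). Ordered by mean, the ranges of neighbouring groups overlapped. Against the 3bp-del heterozygotes the 3bp-12bp-del homozygotes were higher by a log2 difference of 0.56 (SE 0.17, adjusted p = 0.235, edgeR), and against the 3bp-del homozygotes by 0.35 (SE 0.13, adjusted p = 0.142, edgeR). Neither difference passed by edgeR, and both passed by DESeq2, at adjusted p of 0.0359 and 0.0485.

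BC006965 (chr11:112663927-112781976, GRCm38, minus strand) is a noncoding transcript annotated as starting 247 bases from the start of Sox9 and running in the opposite direction. Because the handling of strand is not given in the sources used here, its reads cannot be told apart from antisense reads. Its levels were 2.54, 3.00 and 1.07 CPM in the wild types and 7.71, 8.93 and 8.90 CPM in the homozygotes, with no overlap. The log2 difference was 1.93 (SE 0.36, adjusted p = 0.342, edgeR) with 6 libraries and 1.60 (SE 0.18, adjusted p = 0.0209, edgeR) without wild-type replicate 3, where it passed. DESeq2 and 1 edgeR fit over all groups called it with 6 libraries (adjusted p = 4.37e-05 and 0.0214). The call without wild-type replicate 3 was lost in 1 fit over all groups (adjusted p = 0.0555, edgeR) and on also leaving out homozygote 2 (0.0503), wild-type replicate 1 (0.1) or wild-type replicate 2 (0.425), with log2 differences of 1.495 to 1.73. The 3bp-del heterozygotes lay between, at 5.498, 3.89 and 4.21 CPM, and the 3bp-del homozygotes averaged 6.73 CPM (SD 1.13, n = 5). The differences from these groups, 0.90 (SE 0.17, adjusted p = 0.227, edgeR) and 0.33 (SE 0.15, adjusted p = 0.223, edgeR), did not pass by edgeR, and DESeq2 called the first (adjusted p = 0.00282).

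**Figure D1:**
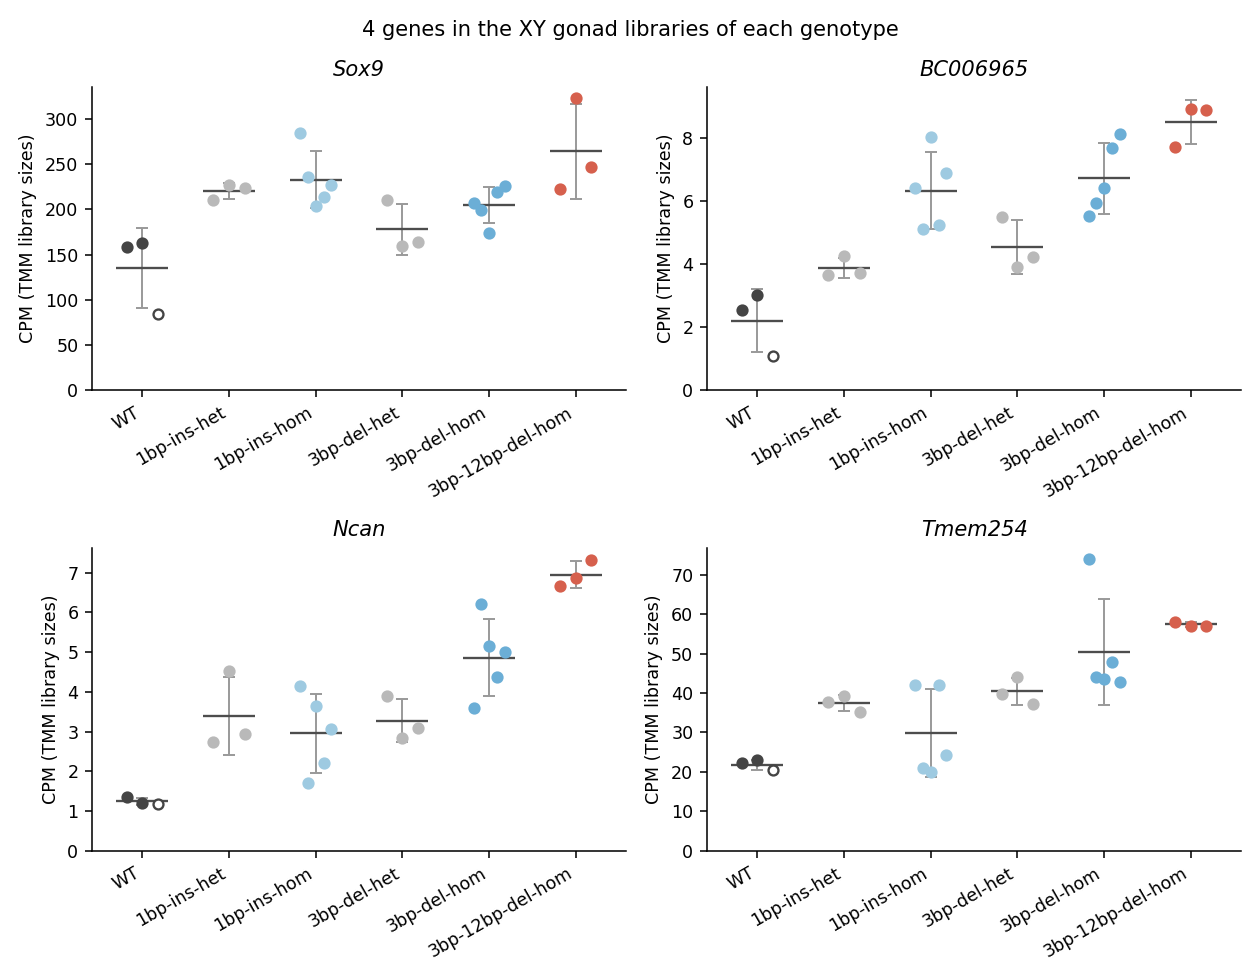
CPM of Sox9, BC006965, Ncan and Tmem254 (vertical axes, linear from 0) in each XY library by genotype. Each point is a library, bars are group means with SD, and the open circle is wild-type replicate 3. In all 4 panels the wild types have the lowest group mean and the 3bp-12bp-del homozygotes the highest.

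Over all genes, 2 of 15390 passed at an adjusted p under 0.05 with 6 libraries, 0.013% of those tested, while 1052 (6.84%) had an unadjusted p under 0.05. In the 6-library fit, leaving out any 1 library other than wild-type replicate 3 left 0 calls by edgeR, with 524 to 1140 genes at an unadjusted p under 0.05. Without wild-type replicate 3, 56 of 15594 passed (0.359%), 50 higher (0.321%) and 6 lower (0.0385%), and 2933 (18.8%) had an unadjusted p under 0.05. That count moved with single libraries: it was 20 without homozygote 1, 16 without homozygote 2, 1111 without homozygote 3, 1 without wild-type replicate 1 and 0 without wild-type replicate 2. DESeq2 called 135 genes with 6 libraries and 1129 without wild-type replicate 3. Of the 56, DESeq2 without that library called 55. In the 6-library comparison 1336 genes (8.68%) were higher in all homozygotes than in all wild types and 763 (4.96%) were lower.

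Ncan and Tmem254 passed both with and without wild-type replicate 3. Ncan, which encodes the matrix proteoglycan neurocan (chr8:70093085-70120873, GRCm38, minus strand), was at 1.34, 1.21 and 1.16 CPM in the wild types and at 6.66, 6.88 and 7.32 CPM in the homozygotes. The log2 difference was 2.46 (SE 0.19, adjusted p = 0.0269, edgeR), and 2.43 (SE 0.20, adjusted p = 0.00678, edgeR) without wild-type replicate 3. The 5 3bp-del homozygotes ran from 3.59 to 6.203 CPM and the 3bp-del heterozygotes from 2.84 to 3.89 CPM, all between the wild types and the 3bp-12bp-del homozygotes. Tmem254, a transmembrane protein gene, was at 22.2, 23.0 and 20.5 CPM in the wild types and at 58.1, 57.1 and 57.1 CPM in the homozygotes. The log2 difference was 1.37 (SE 0.08, adjusted p = 0.00919, edgeR), and 1.33 (SE 0.08, adjusted p = 0.00172, edgeR) without wild-type replicate 3. GENCODE M21 lists 3 near-identical copies of the gene on chromosome 14, Tmem254a, Tmem254b and Tmem254c, so its counts are uncertain as those of a single gene.

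For Ncan, which had the larger rise of the 2 genes called with 6 libraries, and for BC006965, the one beside Sox9, the 250 bases before the RefSeq start (GRCm38.p6, minus strand) are shown as the sequence context of these 2 rises. The RefSeq start of BC006965 lies 70 kilobases inside the GENCODE gene, so its window is not the stretch next to Sox9. The windows are chr8:70120845-70121094 for Ncan and chr11:112711357-112711606 for BC006965, each written 5′ to 3′.
Ncan: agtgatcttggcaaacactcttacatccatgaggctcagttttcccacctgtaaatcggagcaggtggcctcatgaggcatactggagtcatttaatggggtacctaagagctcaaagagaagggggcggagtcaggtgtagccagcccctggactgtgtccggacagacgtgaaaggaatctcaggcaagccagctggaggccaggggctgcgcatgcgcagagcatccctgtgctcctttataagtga
BC006965: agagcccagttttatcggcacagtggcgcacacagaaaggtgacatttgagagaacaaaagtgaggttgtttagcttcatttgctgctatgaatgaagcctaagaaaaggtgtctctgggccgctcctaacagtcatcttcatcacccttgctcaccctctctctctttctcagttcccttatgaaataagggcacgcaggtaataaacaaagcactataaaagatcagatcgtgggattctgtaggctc
The 6-base string AACAAT, a form of the SOX core motif, was searched on both strands and would be in capitals. Neither window holds it. Related SOX sequences were not searched, and the BC006965 window holds aacaaag, left in lower case. The lack of AACAAT therefore does not show that a window lacks a SOX site. Of the 41 promoters listed for the 50 genes that rose, 2 held AACAAT (4.88%), against 821 of 15003 promoters of all genes tested (5.47%). A match or its absence in such a window is a description of these letters only.

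A further 7 named genes rose without wild-type replicate 3 and did not pass with it by edgeR, though DESeq2 called Kif19a, Adcy9, Erbb3, Fhdc1 and Fam83f with 6 libraries too. Kif19a, a kinesin that limits the length of cilia, lies 1977 kilobases beyond Sox9 on the same chromosome and was at 13.4, 14.9 and 7.92 CPM in the wild types and 55.6, 60.7 and 40.2 CPM in the homozygotes. Its log2 difference was 1.87 (adjusted p = 0.0344, edgeR), and 2.09 with 6 libraries (adjusted p = 0.142, edgeR). Adcy9, an adenylyl cyclase, was at 8.74, 6.94 and 10.9 CPM against 19.1, 22.0 and 21.7 CPM, a log2 difference of 1.40 (adjusted p = 0.017, edgeR). Kif19a and Adcy9 did not overlap between the groups even with the third wild type counted. Erbb3, a neuregulin receptor, was at 28.5, 27.1 and 35.1 CPM against 59.3, 50.7 and 70.7 CPM, a log2 difference of 1.10 (adjusted p = 0.0344, edgeR). Fhdc1, a formin that acts on actin and microtubules, differed by 1.25 and Fam83f by 1.00 (adjusted p = 0.0483 and 0.0437, edgeR), with wild-type replicate 3 below every homozygote in both. For Stard9, a kinesin-like protein, and Celsr1, a cadherin of planar cell polarity, the third wild type went the other way. Celsr1 was at 43.4, 38.9 and 98.3 CPM in the wild types against 98.3, 95.7 and 75.8 CPM, so its log2 difference of 1.11 (adjusted p = 0.0326, edgeR) became 0.55 (adjusted p = 0.814, edgeR) with 6 libraries. Stard9 went from 1.22 (adjusted p = 0.04, edgeR) to 0.63 (adjusted p = 0.809, edgeR).

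Of the 50 genes that rose, wild-type replicate 3 lay below all 3 homozygotes in 35, within their range in 4 and above all of them in 11. The same split was not counted over all genes. Of these 50 genes, the mean of the homozygotes was the highest of the 6 XY groups in 48, and the mean of wild-type replicates 1 and 2 was the lowest in 35. Over all 15594 genes tested these numbers were 3464 and 2145. The mean of the homozygotes was above that of the 3bp-del heterozygotes in all 50. Choosing genes that are high in these same homozygotes favours this, and the share over all genes was not counted. Over all 15258 genes tested against the heterozygotes the median log2 difference was 0.003, and 1 gene passed by edgeR. Heterozygotes for 3bp-del, which share no library with this comparison, gave the sex difference of each gene (4584 of 15467 genes passed, 29.6%). By it, 35 of the 49 genes measured there were higher in XY (71.4%) and 2 higher in XX (4.08%), against 16.1 and 13.2% of all 15197 genes. Of the 6 genes that fell, 3 were higher in XY and 1 in XX. The choice of the 50 from these 5 libraries makes all these counts a description.

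The 6 genes that fell without wild-type replicate 3 had smaller differences, and DESeq2 also called 5 of them with 6 libraries, all but Aqp5. Nr2f2, the nuclear receptor COUP-TFII of the gonadal interstitium, was at 323, 327 and 472 CPM in the wild types and 227, 234 and 251 CPM in the homozygotes. Its log2 difference was -0.47 (adjusted p = 0.0479, edgeR), and -0.69 with 6 libraries (adjusted p = 0.531, edgeR). Dhrs3, a retinaldehyde reductase that limits retinoic acid, was at 26.8, 28.3 and 37.7 CPM against 17.9, 18.3 and 18.6 CPM, a difference of -0.61 (adjusted p = 0.0437, edgeR). Nfia, a transcription factor of the nuclear factor I family, and Hic1, a transcriptional repressor, fell by 0.51 and 0.46 on the log2 scale (adjusted p = 0.0493 and 0.0449, edgeR). In these 4 genes the third wild type was the highest of the 6 libraries. Aqp5, a water channel, was at 43.9, 45.0 and 17.7 CPM against 27.2, 24.7 and 24.2 CPM, so the third wild type lay below the homozygotes, and its difference of -0.83 (adjusted p = 0.0209, edgeR) became -0.51 (adjusted p = 0.812, edgeR) with 6 libraries. Atp6-ps, by its name a pseudogene of a mitochondrial ATP synthase subunit and so liable to share reads with its parent gene, was at 2851, 2876 and 1716 CPM against 1372, 1330 and 1133 CPM. Its log2 difference was -1.18 (adjusted p = 0.00678, edgeR), and -0.98 with 6 libraries (adjusted p = 0.416, edgeR). The 3bp-del heterozygotes, at 2828, 3335 and 2135 CPM, were also above the homozygotes. The plot of named genes by library shows these 6 genes and 10 of the risers.

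**Figure D2:**
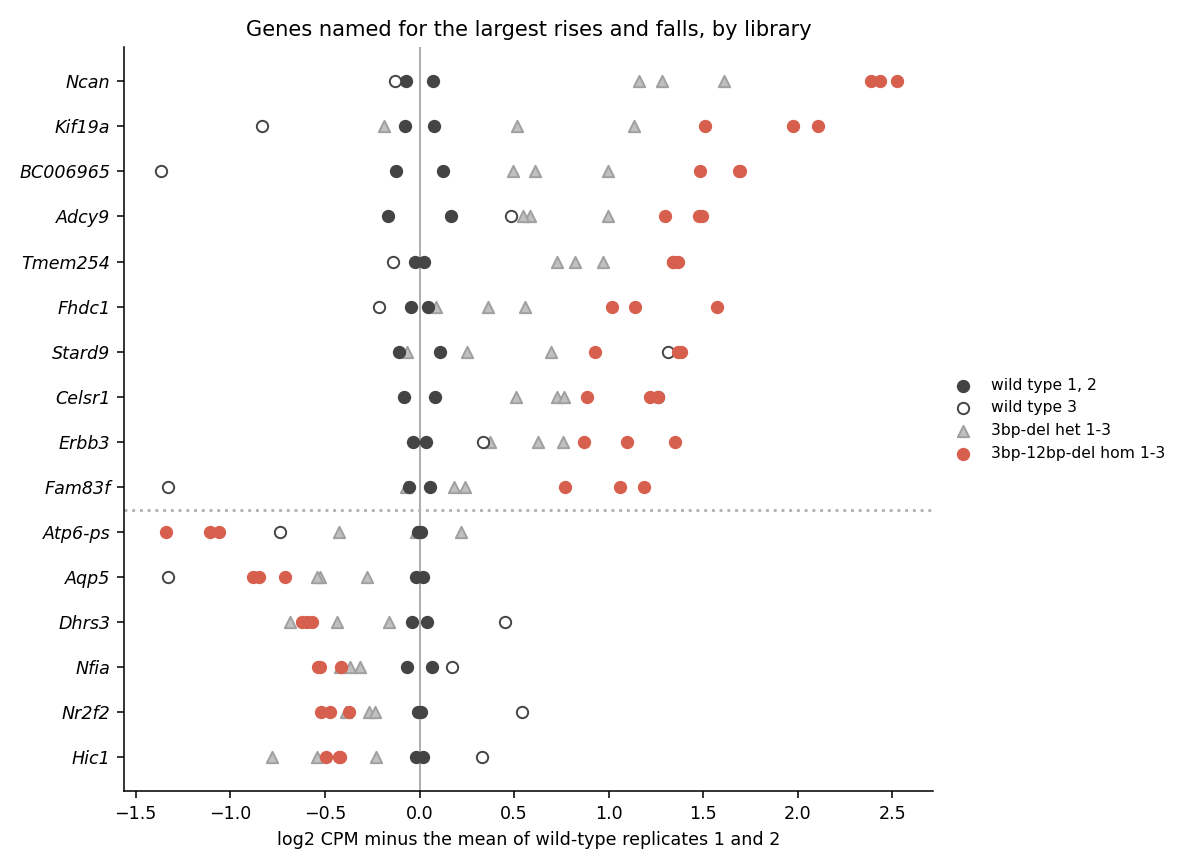
Log2 CPM of each library minus the mean of wild-type replicates 1 and 2 (horizontal axis) for the 10 named genes that rose and the 6 that fell without wild-type replicate 3. Points are libraries, with open circles for wild-type replicate 3 and grey triangles for 3bp-del heterozygotes. The 3 homozygotes lie on 1 side of wild-type replicates 1 and 2 in every gene because the genes were chosen that way. The third wild type, which the choice did not use for this, lies among or beyond the homozygotes for Stard9, Celsr1 and Aqp5.

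The differences moved with gene length, here the length of a gene relative to the median, taken from the ratio of deposited counts to TPM. Without wild-type replicate 3 the median log2 difference was -0.11 in the shortest of 10 equal bins of genes and 0.23 in the longest, and Spearman's rho across 15594 genes, which are not independent replicates, was 0.332. With 6 libraries rho was 0.0742. The genes that rose had a median relative length of 2.62 against 1.27 for all genes, and 40 of the 50 were longer than the median. By library, rho of the deviation with length was -0.241, -0.481 and 0.325 in wild types 1 to 3 and 0.229, 0.0708 and -0.0894 in homozygotes 1 to 3, so the first 2 wild types lie at 1 end. With this trend removed from each library, 37 genes passed without wild-type replicate 3, 29 higher (78.4%) and 8 lower, against 89.3% higher before. Of the 56 genes, 30 passed in both fits, BC006965 (1.69, adjusted p = 0.0304, edgeR), Ncan and Tmem254 among them. Erbb3 (0.92), Stard9 (1.05), Fhdc1 (1.12), Fam83f (1.00) and Dhrs3 (-0.53) no longer passed, at adjusted p of 0.0544 to 0.0752 (edgeR) and with log2 differences close to those before. With 6 libraries the trend-free fit kept Tmem254 and lost Ncan (2.36, adjusted p = 0.105, edgeR).

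**Figure D3:**
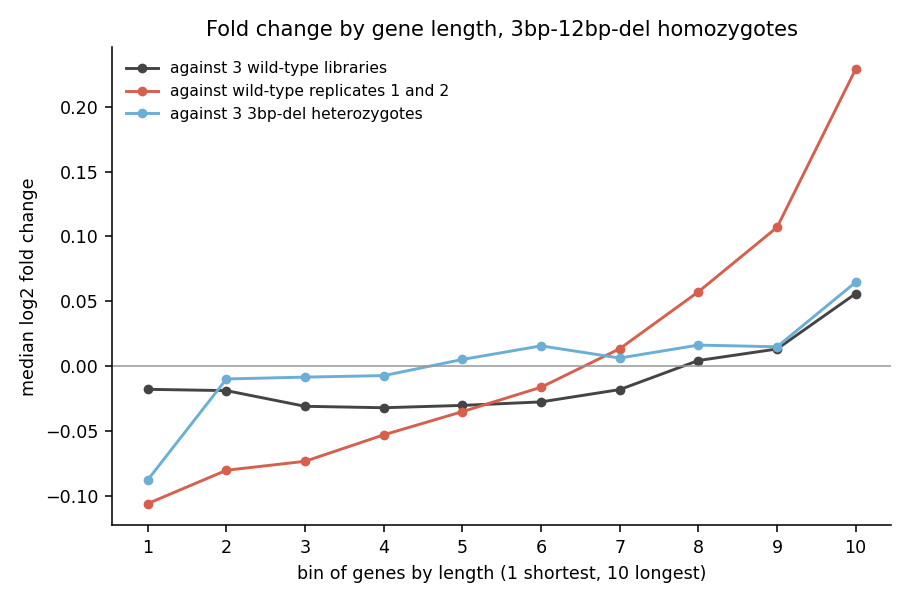
Median log2 fold change (vertical axis) in 10 equal bins of genes ordered by relative length (horizontal axis, shortest to longest) for the 3bp-12bp-del homozygotes against 3 wild types, wild-type replicates 1 and 2, and 3bp-del heterozygotes. The line without wild-type replicate 3 climbs from -0.11 to 0.23, while the line with 6 libraries ends at 0.06.

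The gene lists describe the cell types. Beside each median stands that of all genes tested, -0.01 with 6 libraries and -0.0005 without wild-type replicate 3. Of the 286 genes of the 30 lists tested with 6 libraries edgeR called 0, and 25 had an unadjusted p under 0.05, while DESeq2 called 7 of 288 (2.43%, against 0.809% of all genes). Without wild-type replicate 3 edgeR called BC006965, Dhrs3 and Nr2f2, and DESeq2 called 28 of 268 (10.4%, against 8.51% of all genes). Among 21 Sertoli genes the log2 difference was positive in 20 with 6 libraries (median 0.43) and in 16 without wild-type replicate 3 (median 0.15). None passed by edgeR in either fit, while Sox9 passed by DESeq2 in both. Without the third wild type, 3 of the 21 had an unadjusted p under 0.05, against 18.8% of all genes, and in 5 the homozygotes lay above both wild types, against 20.1%, so both shares are near the background. Dhh, the Desert hedgehog ligand, was at 199, 168 and 74.9 CPM in the wild types and 226, 224 and 293 CPM in the homozygotes, a difference of 0.73 (adjusted p = 0.754, edgeR), or 0.42 (adjusted p = 0.164, edgeR) without wild-type replicate 3. Sox10, a Sox factor of Sertoli cells, was at 36.7, 39.6 and 16.0 CPM against 47.9, 50.4 and 51.6 CPM (0.37, adjusted p = 0.0732, edgeR, without wild-type replicate 3). Both genes were highest in the homozygotes and lowest in the third wild type. Amh, the hormone that removes the Müllerian duct, was at 542, 474 and 214 CPM against 378, 388 and 1211 CPM, so its mean difference of 0.66 (adjusted p = 0.839, edgeR) rests on homozygote 3. Without that homozygote and wild-type replicate 3 it was -0.42 (adjusted p = 0.0201, edgeR). Inhbb, the inhibin beta B subunit, and Vnn1 overlapped between the groups, and Fgf9, Sox8 and Dmrt1 differed by 0.04, 0.02 and -0.26 without the third wild type, none past the test.

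The 16 pregranulosa and WNT genes had a median of -0.35 with 6 libraries and 0.09 without wild-type replicate 3, with 10 and 6 negative. Foxl2, the ovarian transcription factor, was the lowest at 1.60, 2.61 and 1.92 CPM in the wild types against 1.27, 0.99 and 0.67 CPM in the homozygotes, a difference of -1.09 (adjusted p = 0.64, edgeR), or -1.13 (adjusted p = 0.157, edgeR). XX wild types had 47.2 to 59.0 CPM. Wnt4, a WNT ligand of the ovary, was at 48.6, 83.5 and 135 CPM against 56.8, 73.1 and 49.0 CPM, and Kitl, the KIT ligand, at 392, 297 and 188 CPM against 297, 375 and 378 CPM. Both overlapped between the groups. Of the 14 bipotential gonad factors none passed, and Gata4 and Nr5a1, which are needed to form the gonad, differed by 0.0004 and -0.10 without wild-type replicate 3. They were at 237 and 178 CPM in that library against 525 to 554 and 465 to 470 CPM in the other wild types.

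Leydig and Hedgehog genes varied more among the homozygotes than between the groups. The 10 steroidogenic genes had a median of 0.40 with 6 libraries and 0.02 without wild-type replicate 3, and none separated the groups. Their mean log2 CPM was 2.39, 2.76 and 3.66 in homozygotes 1 to 3 and 3.25, 2.94 and 1.74 in the wild types. Hhip, a Hedgehog target and antagonist, was at 9.78, 4.38 and 92.3 CPM in the homozygotes and 42.3, 17.7 and 29.1 CPM in the wild types. Cyp17a1, an enzyme of androgen synthesis, was at 0.59, 0.42 and 6.90 CPM against 3.32, 1.64 and 0.57 CPM. Homozygote 3 was thus the highest library for both. Ptch1, the Hedgehog receptor and target, differed by 0.29 (adjusted p = 0.836, edgeR), or 0.33 (adjusted p = 0.593, edgeR). The 7 other Hedgehog pathway genes, Smo among them, did not pass either.

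The 10 interstitial stroma genes were negative in 10 of 10 in both fits, with medians of -0.57 and -0.26, and 4 of 10 had an unadjusted p under 0.05 in each, against 6.84% of all genes with 6 libraries and 18.8% without wild-type replicate 3. Nr2f2 is the called one. Col1a1, a fibrillar collagen, was at 731, 653 and 1387 CPM in the wild types and 522, 366 and 435 CPM in the homozygotes, a difference of -1.10 (adjusted p = 0.618, edgeR), or -0.67 (adjusted p = 0.0852, edgeR), which passed by DESeq2 in both fits (adjusted p = 0.026 and 0.000606). Wnt5a, a WNT ligand of the interstitium, was at 209, 188 and 270 CPM against 183, 150 and 162 CPM. The groups of both genes did not overlap, and the third wild type was highest in both. Pdgfra, a receptor of interstitial cells, differed by -0.04 and -0.01. Against the 3bp-del heterozygotes Col1a1 differed by -0.84 (adjusted p = 0.235, edgeR) and Nr2f2 by -0.16 (adjusted p = 0.325, edgeR).

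Basement membrane genes were positive in 8 of 11 with 6 libraries (median 0.06) and in 11 of 11 without wild-type replicate 3 (median 0.42), where 6 had an unadjusted p under 0.05, against 18.8% of all genes, and none passed by edgeR. In 7 of the 11 the homozygotes lay above wild-type replicates 1 and 2, against 20.1% of all genes. These shares take no account of gene length. In the same fit the longest of the 10 bins of genes had a median of 0.23. Whether length accounts for the shares was not tested. Hspg2, the proteoglycan perlecan, was at 496, 330 and 885 CPM in the wild types and 741, 589 and 608 CPM in the homozygotes (0.63, adjusted p = 0.179, edgeR, without the third wild type, and 0.15 with it). Col18a1, the collagen that gives endostatin, was at 1437, 1149 and 1152 CPM against 1566, 1645 and 2042 CPM (0.46 with 6 libraries, adjusted p = 0.637, edgeR). Col18a1 separated the groups in all 6 libraries and Hspg2 did not. Of the 11 Notch pathway genes, 7 were positive and 4 negative without wild-type replicate 3 (median 0.08), and none passed by edgeR. The lowest was Hes1, a target of the pathway, at 49.8, 56.7 and 39.4 CPM against 34.3, 42.2 and 38.5 CPM (-0.49, adjusted p = 0.0736, edgeR). The receptors were positive. Notch2 was at 147, 115 and 291 CPM against 229, 212 and 193 CPM, with a difference of 0.67 (adjusted p = 0.0624, edgeR) without wild-type replicate 3 and 0.17 (adjusted p = 0.941, edgeR) with it. Notch1 and Notch3 differed by 0.66 and 0.62 (adjusted p = 0.0703 and 0.0792, edgeR) without it. DESeq2 called Notch2 and Notch3 there (adjusted p = 6.64e-05 and 0.00137). With the length trend removed, Notch2 differed by 0.34 and Notch3 by 0.38 (adjusted p = 0.0764 and 0.168, edgeR), again without wild-type replicate 3.

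Other cell types differed by library more than by genotype. The 12 macrophage genes were negative in 12 of 12 with 6 libraries (median -0.63) and in 8 of 12 without wild-type replicate 3 (median -0.13). Their mean log2 CPM was 2.23, 2.23 and 3.38 in the wild types and 1.90, 2.39 and 2.06 in the homozygotes. The 15 endothelial genes had medians of 0.06 and 0.08. The 14 general germ cell genes had medians of 0.05 and -0.05, and their mean log2 CPM ran from 4.13 to 4.57 in the wild types and from 3.76 in homozygote 2 to 4.75 in homozygote 1. Lefty2, a Nodal antagonist of male germ cells, was at 34.4, 50.4 and 33.3 CPM against 50.6, 21.3 and 31.2 CPM. The 10 erythroid genes tested had medians of -0.12 and -0.37, the 15 cell cycle genes 0.04 and -0.05, and the 16 cholesterol synthesis genes 0.10 and -0.02. The 9 mesonephros genes tested had a median of -2.35 with wild-type replicate 3 and 0.75 without it, which is the library difference given above. Posterior Hox genes had medians of -0.38 and 0.27 and followed that library only in part. Their mean log2 CPM was 3.46 in wild-type replicate 3, 1.97 and 1.67 in the other wild types and 2.36, 2.50 and 2.38 in the homozygotes. Their summed CPM was 148 in wild-type replicate 3 against 161 and 164. Without it 3 of 7 genes had an unadjusted p under 0.05 by edgeR, against 18.8% of all genes.

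**Figure D4:**
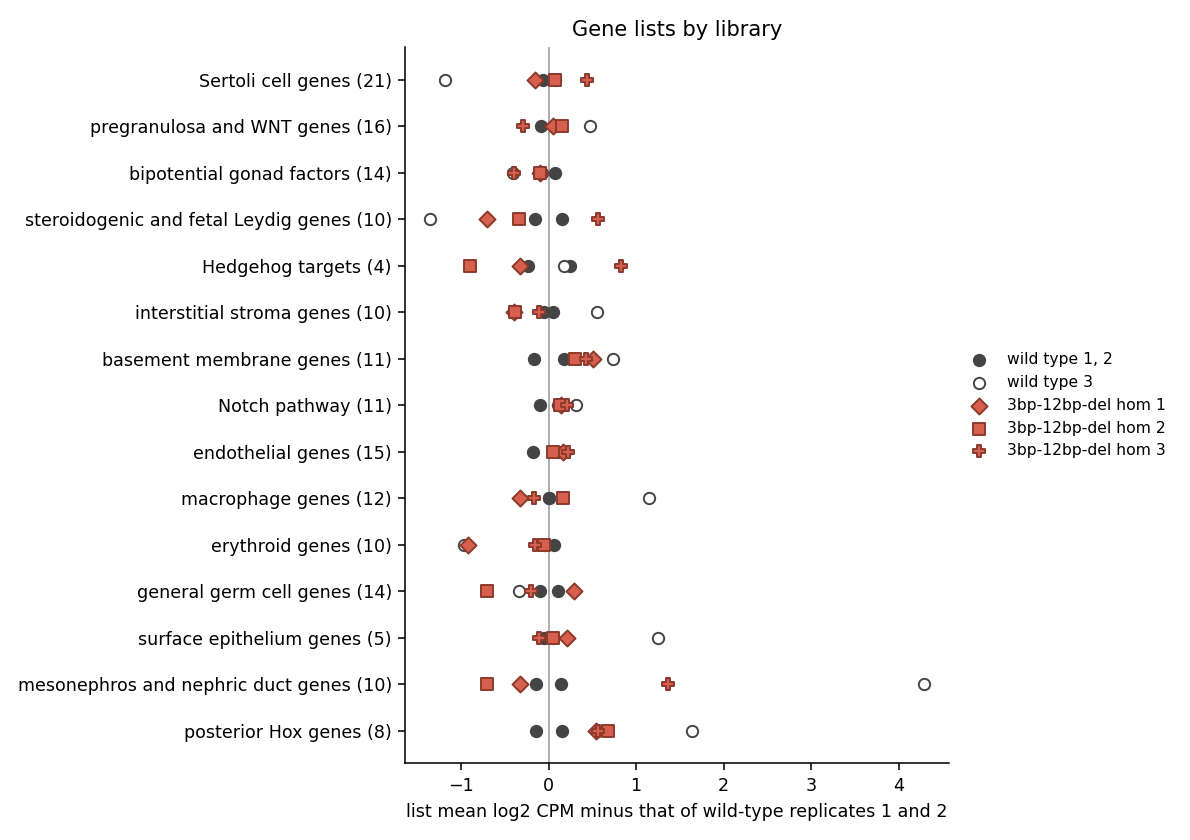
Mean log2 CPM of each gene list in a library minus that of wild-type replicates 1 and 2 (horizontal axis), with the number of genes in brackets. Filled circles are wild-type replicates 1 and 2, the open circle is wild-type replicate 3 and red symbols are the 3 homozygotes. Wild-type replicate 3 is the farthest point for mesonephros genes and lowest for Sertoli genes, and homozygote 3 is highest for Leydig genes and Hedgehog targets.

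A second XY control, the 3bp-del heterozygotes, shares no library with the wild types. Against it 1 of 15258 genes passed (0.00655%), Malat1, an abundant nuclear noncoding RNA named here after its values were seen, and 2456 genes (16.1%) had an unadjusted p under 0.05. Malat1 was at 48.3, 43.8 and 41.8 CPM in the heterozygotes, 125, 158 and 118 CPM in the homozygotes and 141, 144 and 197 CPM in the wild types, so the homozygotes lay near the wild types and the heterozygotes apart. The log2 difference was 1.58 (adjusted p = 0.0188, edgeR). Without homozygote 1, heterozygote 1 or heterozygote 3 the count was 0, and without homozygote 3 it was 2. DESeq2 called 295 genes. Heterozygote 1 carried adrenal markers, with Dbh, an enzyme of noradrenaline synthesis, at 31.4 CPM against 0.10 and 1.80 CPM. Tmem254 and Ncan differed from the heterozygotes by 0.50 and 1.08 (adjusted p = 0.227 for both by edgeR, and 0.000634 and 0.000266 by DESeq2), and Kif19a by 1.30 (adjusted p = 0.235, edgeR).

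Against the 5 XY 3bp-del homozygotes, 654 of 15865 genes passed (4.12%), 363 higher (2.29%) and 291 lower (1.83%). This count also moved with single libraries: it was 2 without 3bp-12bp-del homozygote 1, 1 without homozygote 2, 1789 without 3bp-del homozygote 1, and 23, 240, 94 and 89 without 3bp-del homozygotes 2 to 5. Only 24 of the 654 differed by 2-fold or more. The median relative length was 2.87 in the genes called higher and 0.69 in those called lower. Of the genes named above, Adcy9 (0.80, adjusted p = 0.0335, edgeR) and Stard9 (0.98, adjusted p = 0.0251, edgeR) were higher and Atp6-ps (-1.18, adjusted p = 0.0272, edgeR) was lower than in the 3bp-del homozygotes. Ncan (0.50, adjusted p = 0.108, edgeR) and Tmem254 (0.17, adjusted p = 0.62, edgeR) did not pass.

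The effect of the genotype was compared between the sexes with an interaction term, the XY difference minus the XX difference, over 14 libraries. It passed in 97 of 16259 genes (0.597%), 80 of them lower in this contrast (0.492%) and 17 higher (0.105%). Sox9 went from 12.1, 7.84 and 8.40 CPM in wild-type XX gonads to 151, 216, 219, 266 and 215 CPM in XX homozygotes, and its interaction was -3.57 (SE 0.36, adjusted p = 0.0018, edgeR). BC006965 went from 0.03, 0.03 and 0.09 CPM to 1.90 to 5.19 CPM in XX, with an interaction of -4.26 (SE 0.72, adjusted p = 0.0263, edgeR). The interaction of Sox9 passed in all 19 alternatives tried, and that of BC006965 in 10 of 19, being lost with the replicate block (adjusted p = 0.114, edgeR) and without any 1 of 8 libraries (0.0534 to 0.0981). The XY wild types were at 84.0 to 163 CPM of Sox9 and 1.07 to 3.00 CPM of BC006965, and XX homozygotes reached or passed these levels for both. Set beside the XY homozygotes, their mean Sox9 was 214 against 264 CPM, with overlapping ranges. Their BC006965 stayed below that of every XY homozygote, the lowest of which was at 7.71 CPM. The interactions of Ncan (1.95, adjusted p = 0.292, edgeR), Tmem254 (-0.04, adjusted p = 0.917, edgeR) and Kif19a (-1.53, adjusted p = 0.244, edgeR) did not pass. The count rested on single libraries: it was 2957 without XY wild-type replicate 3 and 10 to 208 without any other library, within 1.5 times of 97 only without XX homozygote 1 or 2.

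Tmem254 and 3 genes named after their values were seen differed widely between libraries of 1 genotype in some groups. Tmem254 was at 20.5 to 27.6 CPM in all 6 wild-type libraries of both sexes and at 55.8 to 78.2 CPM in all 8 3bp-12bp-del homozygotes of both sexes. Within the XY 1bp-ins homozygotes it was at 42.1, 20.95, 20.1, 42.1 and 24.4 CPM, so libraries of 1 genotype lay at separate levels. Gm16867, a predicted gene on chromosome 14, was at 0, 0 and 0.063 CPM in the XY wild types, 5.67, 20.4 and 16.4 CPM in the XY homozygotes and 0, 0 and 11.03 CPM in the 3bp-del heterozygotes (edgeR adjusted p against the wild types 0.0873). Gm8226, a processed pseudogene on chromosome 9, was at 59.1, 117 and 76.2 CPM in the XY wild types and at 0, 0 and 0.81 CPM in the XY homozygotes (edgeR adjusted p = 0.0873). DESeq2 called Gm16867, Gm8226 and Nnt with 6 libraries. Gm8226 was at 0.83 to 4.75 CPM in 4 of the 5 XX homozygotes and at 98.3 CPM in the other one. Nnt, which encodes the mitochondrial nicotinamide nucleotide transhydrogenase, was at 105, 73.2 and 100 CPM in the XY wild types and 35.6, 37.9 and 45.9 CPM in the XY homozygotes, a difference of -1.25 (adjusted p = 0.155, edgeR), and at 89.2 to 99.4 CPM in XX wild types. The labels give neither the strain nor the litter of a library.

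**Figure D5:**
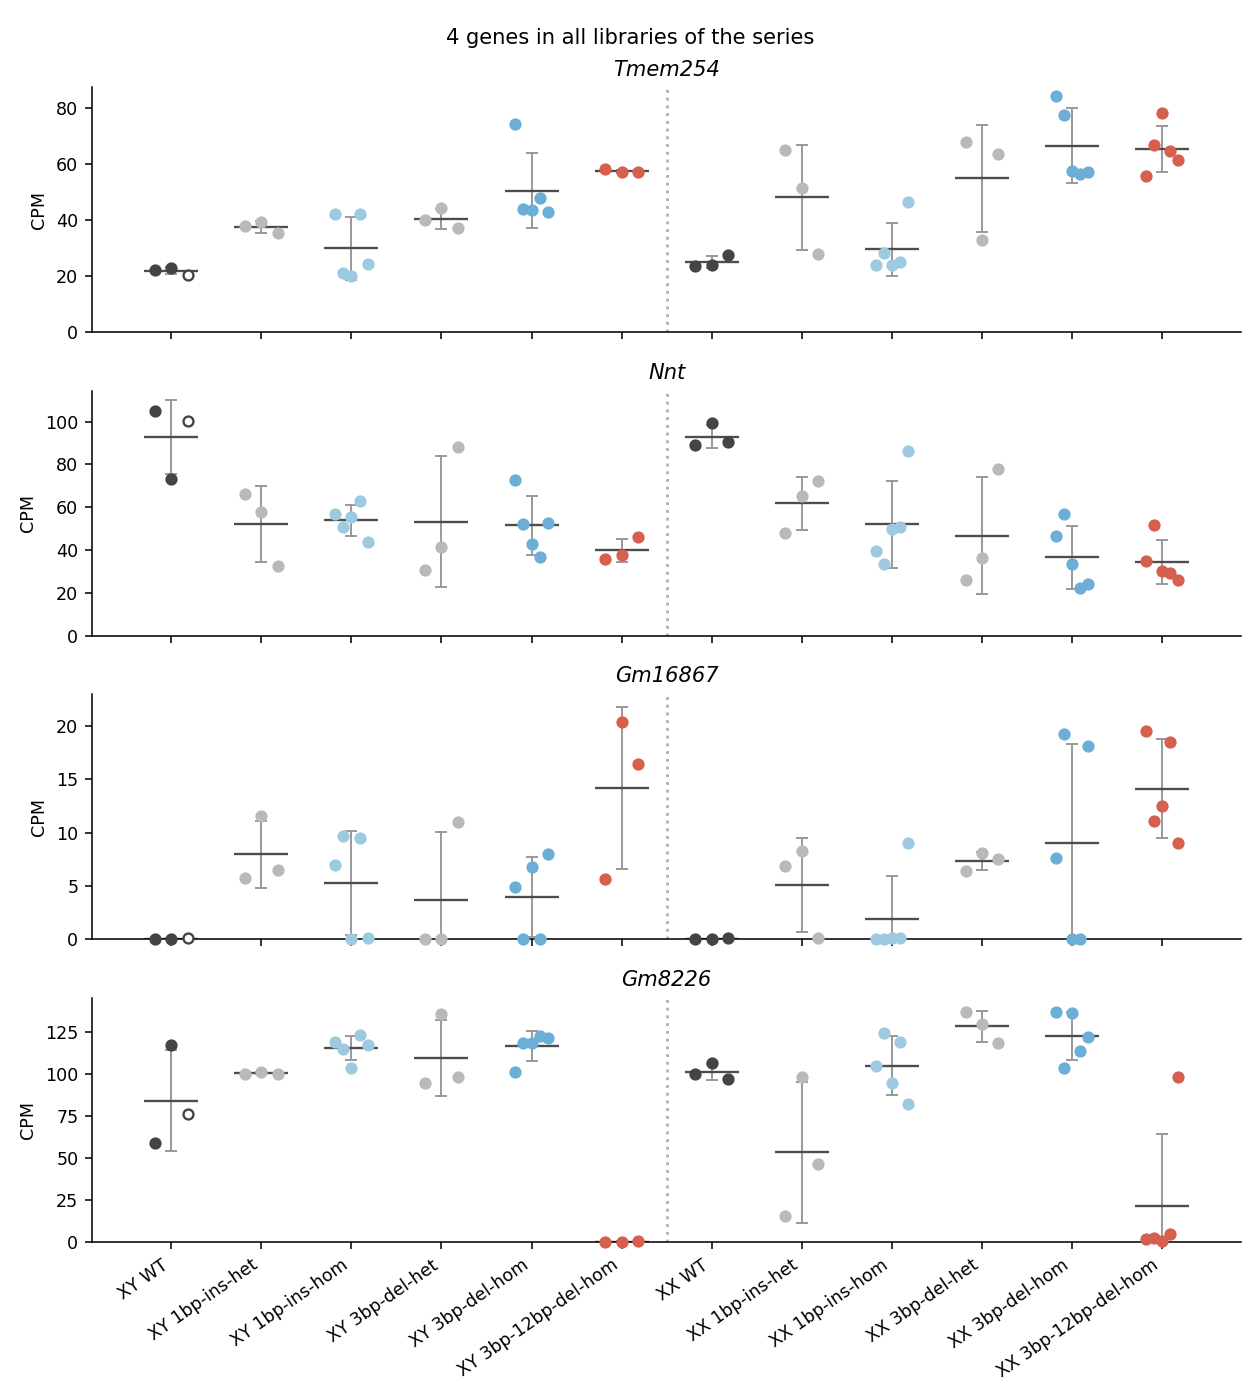
CPM (vertical axes, linear from 0) of Tmem254, Nnt, Gm16867 and Gm8226 in every library by group, XY on the left and XX on the right of the dotted line. Points are libraries, bars are group means with SD and the open circle is XY wild-type replicate 3. Libraries of 1 genotype can lie at separate levels, as the XY 1bp-ins homozygotes do for Tmem254 at 42.1 and 20.1 to 24.4 CPM.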

How the data were processed

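Poly(A) RNA from whole gonads was sequenced, with 140 ng of total RNA per library per the labels' protocols. The deposited estimated counts per gene symbol differ in total between libraries, so they look unnormalized by the authors, and they were rounded, since 8.0 to 8.9% of a library's values were not whole (tolerance 1e-06). The deposited TPM table was scaled by gene length by the authors and was used here only for relative gene length, as counts per TPM. The submitters' processing notes name the build mm10. No source used here names the aligner, quantifier, annotation or strand setting. Each file also has 1 column with no sample in the labels, left out here. The symbols were matched to GENCODE M21 and RefSeq (GRCm38.p6) for positions and promoters.

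Counts were fitted with edgeR 4.0.16 (quasi-likelihood F test, TMM, filterByExpr) in R 4.3.3 on the groups of each comparison, with Benjamini-Hochberg adjustment and a threshold of 0.05. SE is the size of the log2 difference over the root of the F statistic. CPM values use TMM factors over all 46 libraries, and log2 CPM a prior count of 2. No pair of libraries within the 2 groups looked like a double deposit (lowest chi-square per degree of freedom 13.28). On simulated counts 51% of changes of 1 on the log2 scale were called with 6 libraries and 73% without wild-type replicate 3. Of changes of 2 on that scale, 84.8 and 96% were called. There were 14 and 25 false calls among 15243 and 15407 genes tested. These are few over all genes but not beside the genes called. In both simulations they made up a larger part of the calls than the threshold of 0.05 aims at. The real counts gave 2 and 56 calls. The simulation changed 100 genes by 1 and 100 by 2 on the log2 scale, none of them low in counts. It drew genes independently, with no trend with length and no mesonephros RNA, so these shares may not hold for the real counts.

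The libraries and gene lists were chosen with earlier results of these data known. Named genes are Sox9 and BC006965, up to 4 called and 2 uncalled genes per list by level, and the 10 genes that rose or fell most without wild-type replicate 3 with no overlap and mean log2 CPM from 1 up, leaving out predicted genes. Other genes were named after their values were seen, as were the extremes of each list. There were 30 lists (307 genes, 305 in the table). Those the text does not describe as lists held no gene called by edgeR against wild-type XY except Dhrs3 and BC006965. Dhrs3 is in the retinoic acid list and BC006965 in that of genes near Sox9. Alternatives were DESeq2 1.42.0, RLE scaling, no expression filter, 1 fit over all 12 groups, a replicate block, a 2-fold minimum and leaving out each library.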

Additional observations from a re-analysis of the deposited data

Results flagged for a closer look

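Tmem254 was at 74.1 CPM in replicate 1 of the XY 3bp-del homozygotes, far from the other 4 libraries of that group, which lay between 42.8 and 47.8 CPM. Of 16 groups of 5 libraries and genes tested this way, 1 stood out, and chance flags about 1 in 20. The same library was also far above the rest of its group in other genes. Col1a1 was at 3987 CPM in it against 480 to 891 CPM, Fhdc1 at 12.95 against 7.71 to 8.72 CPM and Erbb3 at 78.8 against 46.4 to 54.7 CPM. For Sox9 it lay within the group, at 207 CPM, and for Ncan it was the lowest, at 3.59 CPM. The value of Tmem254 is therefore not an isolated one in this library.

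The effect of the 3bp-12bp-del genotype differed between XY and XX gonads in 8 named genes, by the interaction term of edgeR (XY difference minus XX difference, Benjamini-Hochberg over all genes). For Sox9 it was -3.57 (adjusted p = 0.0018), with group means of 135 and 264 CPM in XY wild types and homozygotes and 9.46 and 214 CPM in XX. For BC006965 it was -4.26 (adjusted p = 0.0263), with means of 2.20 and 8.51 CPM in XY and 0.049 and 3.60 CPM in XX. For Amh it was -8.36 (adjusted p = 0.0297), with XX means of 0.17 CPM in the wild types and 91.3 CPM in the homozygotes. For Lefty2 it was -4.03 (adjusted p = 0.00531), with means of 39.4 and 34.4 CPM in XY and 1.56 and 21.7 CPM in XX. For its relative Lefty1 it was -2.72 (adjusted p = 0.0321). For Fam83f it was -2.80 (adjusted p = 0.0297), with means of 6.89 and 17.4 CPM in XY and 0.32 and 5.58 CPM in XX. For Dusp6, a phosphatase induced by FGF signalling, it was -0.917 (adjusted p = 0.027), with means of 113 and 121 CPM in XY and 49.4 and 97.3 CPM in XX. For Aqp5 it was -2.19 (adjusted p = 0.021), with means of 35.6 and 25.4 CPM in XY and 11.1 and 35.2 CPM in XX, so Aqp5 was lower in XY and higher in XX homozygotes than in the wild types of each sex. Sox9 and Lefty2 passed in all 19 alternatives tried, which include leaving out each of the 14 libraries. The other calls rest on single libraries. The interaction of BC006965 passed in 10 of 19 (highest adjusted p = 0.114), that of Dusp6 in 10 (0.123), those of Amh, Lefty1 and Fam83f in 9 each (0.145, 0.124 and 0.123) and that of Aqp5 in 13 (0.0782), and all 8 kept their sign in each alternative.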

How the results depend on the processing

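Counts of genes called moved most. With 6 libraries (2 genes) DESeq2 called 135, 1 fit over all groups 210, the replicate block 0 and the fit with the length trend removed 1, and leaving out a library gave 0 to 56. Without wild-type replicate 3 (56 genes) DESeq2 called 1129 (66.9% higher against 89.3%), 1 fit over all groups 461, the replicate block 1701, the fit with the length trend removed 37, no expression filter 459 and a 2-fold minimum 13, and leaving out a library gave 0 to 1111. Against the 3bp-del heterozygotes (1 gene) the counts were 295 by DESeq2, 739 in 1 fit over all groups, 3 with the replicate block and 0 to 2 without a library. Against the 3bp-del homozygotes (654 genes) they were 2023, 1534, 1 with the replicate block, 24 with a 2-fold minimum and 1 to 1789 without a library. For the interaction (97 genes) they were 426, 437, 11 with the replicate block and 10 to 2957. For the sex difference of heterozygotes (4584 genes) a 2-fold minimum left 1745. The fit with the length trend removed was chosen after seeing the data. The replicate block without wild-type replicate 3 in effect also leaves out homozygote 3, the only library of that number there. The causes of these shifts were not tested.

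Sox9 passed with 6 libraries by DESeq2 (0.95) and in 1 fit over all groups (0.95), and without wild-type replicate 3 by DESeq2 (0.71), in 1 fit over all groups (0.70) and with the replicate block (0.73, adjusted p = 0.00298). It also passed by DESeq2 against the 3bp-del heterozygotes (0.56) and homozygotes (0.36). Amh without wild-type replicate 3 changed sign without homozygote 3 (-0.42, adjusted p = 0.0201, edgeR). With the replicate block it was -0.41 (adjusted p = 0.0037, edgeR), which is in effect the same comparison. Without wild-type replicate 3, homozygote 3 is the only library of its number, so the block term absorbs it, for Sox9 as well. Amh ran from -0.42 to 0.63 over the fits that leave out 1 library. Same-numbered wild types and homozygotes did not deviate together (Pearson r across genes -0.0543, -0.0353 and 0.00998), so these values show no pairing by number. With 3 libraries a group and wild-type replicate 3 apart from the others, they cannot show that there is none. The labels do not give the litters, so the block has no stated basis in the design. Of 972 values of single genes with 6 libraries 918 kept direction and side of the threshold or stayed uncalled, 41 came to pass and 13 ceased to, and of 891 without wild-type replicate 3 these were 784, 43 and 62, with 2 reversed. Uncalled values changed sign in 48 and 70 of them, the latter counting the 2 reversed.

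With 2 or 3 libraries a group, 1 library decides most calls, and a gene that did not pass is not shown to be equal. At 29909111 or more counts a library, counting error is small beside this for well-expressed genes. Near the floor it is not small. In XX wild types BC006965 was at 0.03 to 0.09 CPM and Amh at 0.09 to 0.26 CPM, and their interactions rest on these values.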
